A study of Mus musculus with 27 samples.

Results

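Growth-type fibroblasts were fibroblasts of mouse back skin whose single cell profiles held at least 1 UMI each of H19, Adam12 and Postn. A UMI (unique molecular identifier) stands for 1 captured RNA molecule. They were selected on these UMI counts, and so on measured values of the same cells, among cells with at least 500 genes, at least 1000 UMIs and under 10% mitochondrial UMIs in which Col1a1, Col1a2, Col3a1 and Dcn together gave at least 1% of UMIs and Krt5 with Krt14 under 0.1%. They also had at most 1 UMI of Thbs4, Cilp and Myoc, under 2 of Pi16 and under 5 of the interferon response genes Isg15, Ifit1, Ifit3 and Cxcl10. By this rule there were 361 such cells in mouse 1 and 820 in mouse 2, 1181 of the 28373 skin cells that passed the filters.

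The study asked how retinoic acid resolves the mixed lineage state of hair follicle stem cells, and it profiled skin as the in vivo reference. Both mice were wild-type and untreated, and their skin was in the full growth stage of the hair cycle (AnaVI) at postnatal day 32. Cells were freed with collagenase and trypsin and, per the methods, sorted as negative for CD45, CD31, CD140a and CD117 before 3' single cell sequencing with 10x Genomics chemistry. With 2 mice in 1 group, no condition could be compared, and the growth-type cells were set against other fibroblasts of the same mice.

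H19 is an imprinted long noncoding RNA that is abundant in fetal mesenchyme and falls in most tissues after birth. In the mouse it shares an imprinted domain with Igf2, a fetal growth factor that is expressed from the other parental copy, while the neighboring Cdkn1c encodes a CDK inhibitor that restrains growth. Adam12 (a membrane metalloproteinase-disintegrin) and Postn (periostin, a matricellular protein that binds collagen) are known from developing, remodeling and wounded connective tissue, and Timp1 inhibits metalloproteinases.

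In GRCm38, per GENCODE M21, H19 lies on chromosome 7 at 142575529 to 142578143. Igf2 lies 72.6 kb and Cdkn1c 880 kb further along the same chromosome, at 142650766 to 142666816 and 143458339 to 143461050. Adam12 is also on chromosome 7, at 133883199 to 134232146, Postn is on chromosome 3 at 54361109 to 54391037, and Timp1 is on chromosome X at 20870166 to 20874735.

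Of the 5 marker genes, Postn and Timp1 had a RefSeq promoter window (GRCm38.p6), which runs from 250 bases before to 50 after the annotated start. They are shown with the window of Hc, the single gene that was called higher than in the remaining fibroblasts. H19, Adam12 and Cdkn1c had none in that table. Each window is read 5′ to 3′ on the gene's strand, and capitals mark a match to TATAAA or to GGGCGG, searched on both strands.
Hc, chr2:35061363-35061662, minus strand: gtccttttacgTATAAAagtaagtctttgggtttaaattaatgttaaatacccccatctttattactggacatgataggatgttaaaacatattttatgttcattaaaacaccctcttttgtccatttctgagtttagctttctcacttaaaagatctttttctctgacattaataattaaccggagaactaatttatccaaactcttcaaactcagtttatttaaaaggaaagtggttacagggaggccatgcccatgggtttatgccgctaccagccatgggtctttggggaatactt
Postn, chr3:54360857-54361156, plus strand: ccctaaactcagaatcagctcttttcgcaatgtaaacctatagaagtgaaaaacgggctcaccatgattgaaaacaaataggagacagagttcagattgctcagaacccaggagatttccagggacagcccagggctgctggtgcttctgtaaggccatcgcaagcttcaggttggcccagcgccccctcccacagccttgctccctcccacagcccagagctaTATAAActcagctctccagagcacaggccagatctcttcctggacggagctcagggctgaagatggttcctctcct
Timp1, chrX:20869916-20870215, plus strand: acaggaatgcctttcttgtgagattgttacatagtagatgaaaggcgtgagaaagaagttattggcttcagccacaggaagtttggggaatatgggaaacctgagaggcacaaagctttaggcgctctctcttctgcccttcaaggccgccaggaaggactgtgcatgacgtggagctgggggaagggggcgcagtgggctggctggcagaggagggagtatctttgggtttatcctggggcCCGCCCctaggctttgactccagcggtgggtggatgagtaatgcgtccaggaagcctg
The Postn window held TATAAA 26 to 21 bases before the start, and the Hc window held it 239 to 234 bases before the start. The Timp1 window held GGGCGG, on the reverse strand, 8 to 3 bases before the start. CACCTG was searched as well and was in none of these 3 windows. Of 32851 RefSeq windows of this length, 13.6% held TATAAA, 35.7% GGGCGG and 20.2% CACCTG.

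The matrices held 16521 and 16068 barcodes with 145318618 and 167258677 UMIs, and 14458 and 13915 cells passed the filters. Fibroblasts that met the collagen and keratin limits were 45.0% and 48.7% of these, although CD140a, the antigen sorted against, is encoded by Pdgfra. Pdgfra had a UMI in 89.8% and 94.0% of growth-type cells, against 10.1% and 19.2% of keratinocytes. Keratinocytes, taken as cells with at least 0.5% Krt5 and Krt14 UMIs and under 0.5% UMIs of the collagen genes, served as the measure of free RNA. Their median depth was 6879 and 9536 UMIs, below the 10817 and 13209.5 of growth-type cells. The matrices shared 62 barcodes, of which 2 and 1 were growth-type cells and 0 were so in both mice. Scrublet called 4.99% and 2.20% of growth-type cells doublets, against 5.76% and 2.21% of all cells.

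Growth-type cells made up 5.55% of gated fibroblasts in mouse 1 (exact Clopper-Pearson 95% interval 5.00 to 6.13) and 12.1% in mouse 2 (11.3 to 12.9). These intervals cover counting error only, and the mice lay well outside each other's intervals. The limits on other genes set part of this share, because fibroblasts with 5 or more interferon UMIs numbered 617 and 2620 and, of the others, 3364 and 807 had 2 or more Pi16 UMIs and at most 1 UMI of Thbs4, Cilp and Myoc (Pi16 class, below). Among fibroblasts under all of these limits, 22.8% (20.7 to 24.9) and 30.8% (29.0 to 32.6) were growth-type.

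The rule was also a rule on depth. H19 was its narrowest step, since 26.2% and 38.2% of the fibroblasts under the limits had an H19 UMI, while Adam12 was seen in 67.1% and 66.3% and Postn in 91.5% and 94.3%. A further 671 and 904 fibroblasts held Adam12 and Postn and missed the rule for H19 alone, and 110 and 288 growth-type cells, 30.5% and 35.1%, entered it with a single H19 UMI. An H19 UMI was also found in 5.38% and 13.7% of keratinocytes and a Postn UMI in 74.2% and 92.0%, cells that should lack both. With every cell thinned to 3000 UMIs before the rule was applied, the share of growth-type cells fell to 4.01% and 8.40%. At the outer edges of the rule, 10 and 21 fibroblasts with all 3 genes were left out for exactly 2 UMIs of Thbs4, Cilp and Myoc, 69 and 67 for exactly 2 of Pi16, and 3 and 17 for exactly 5 of the interferon genes. Just inside, 50 and 118 members had 1 UMI of the first set and 138 and 202 had 1 Pi16 UMI.

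H19 was unevenly spread over the cells that were chosen. The median was 3 UMIs in both mice and the highest cell held 58 in mouse 1 and 95 in mouse 2. The 10% of cells with the most H19 (36 and 82 cells) held 39.3% and 46.5% of all H19 UMIs, and 27.7% and 29.5% of cells held 10 or more. Adam12 (medians 7 and 9 UMIs) and Postn (66 and 73.5 UMIs) were seen at 1 UMI in only 12.5% and 9.15%, and in 1.39% and 1.46%, of the growth-type cells.

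**Figure D1:**
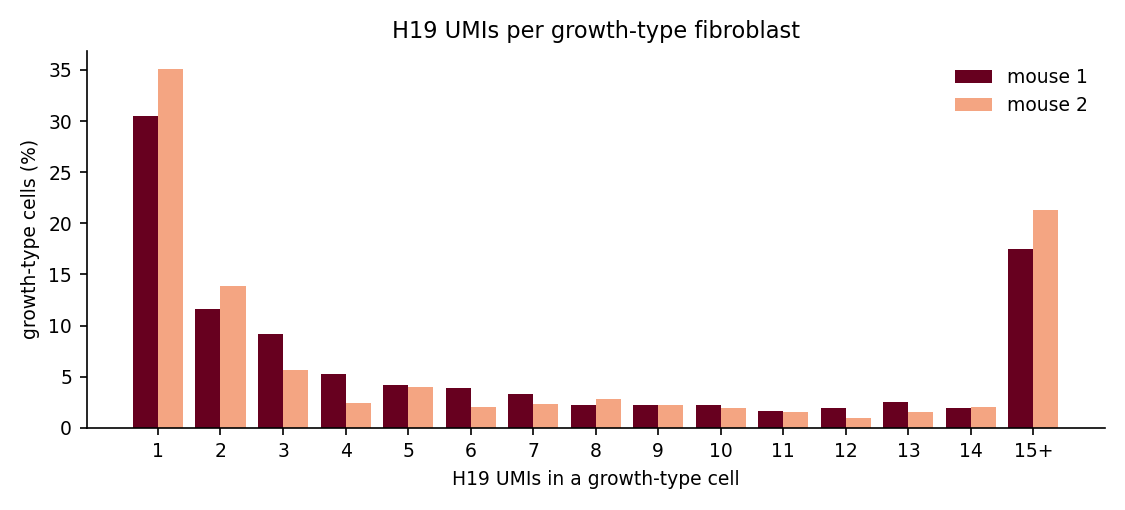
Share of growth-type fibroblasts (y axis, percent) by the number of H19 UMIs in the cell (x axis, 15 or more pooled), with 361 cells of mouse 1 (dark bars) and 820 of mouse 2 (light bars). Cells with a single H19 UMI form the tallest bar, at 30.5% and 35.1%, and a long right tail ends in 17.5% and 21.3% of cells with 15 or more.

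To compare levels, UMIs were summed per mouse and class and expressed as CPM, the UMI count scaled to a common library size with TMM factors. Growth-type cells were set against 3 other classes of fibroblasts of the same mice, which shared no cells: a Pi16 class with at least 2 Pi16 UMIs and at most 1 UMI of Thbs4, Cilp and Myoc (3364 and 807 cells), a Thbs4/Cilp/Myoc class with at least 2 UMIs of those genes and under 2 of Pi16 (217 and 290 cells), and the remaining fibroblasts, which met all limits and lacked a UMI of at least 1 of the 3 rule genes (1223 and 1845 cells). A further 727 and 401 fibroblasts met both the Pi16 and the Thbs4/Cilp/Myoc limit and, like those with 5 or more interferon UMIs, were left out of all classes. CPM values come from 3' tags, so they were compared between classes for the same gene and not between genes.

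H19 stood at 645 and 644 CPM in growth-type cells. It was at 14.8 and 29.6 CPM in the remaining fibroblasts, 57.0 and 108 CPM in the Pi16 class, and 63.2 and 103 CPM in the Thbs4/Cilp/Myoc class. The rule itself made this gap, and the remaining fibroblasts lay below the other classes because cells with H19 had been moved out of them. Adam12 stood at 811 and 934 CPM against 501 and 585 CPM in the remaining fibroblasts, and at most 294 CPM in the other classes. Postn stood at 6479 and 5999 CPM against 2832 and 2867 CPM in the remaining fibroblasts.

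Cdkn1c and Timp1 were not part of the rule but had been picked as markers with these data in view, so their values are given without a test. Cdkn1c was at 1101 and 773 CPM in growth-type cells and between 178 and 313 CPM in all 6 other sums. Timp1 was at 212 and 248 CPM in growth-type cells and 221 and 146 CPM in the remaining fibroblasts, so that the 2 classes overlapped, while the Pi16 and Thbs4/Cilp/Myoc classes reached 142 CPM at most. A Timp1 UMI was found in 65.7% and 54.8% of growth-type cells, and the top 5 cells of each mouse held 23.1% and 23.9% of its UMIs. The high levels of H19, Adam12 and Postn follow from the rule and do not bear on the identity of the class.

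**Figure D2:**
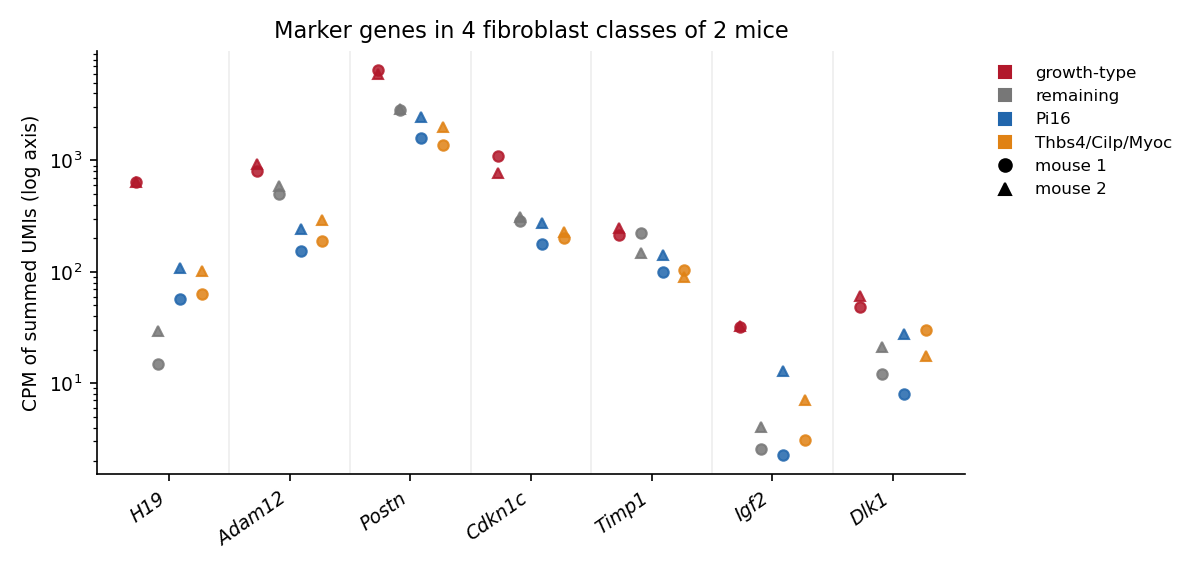
CPM of summed UMIs (y axis, log scale) of the 5 marker genes and of the imprinted genes Igf2 and Dlk1 in growth-type, remaining, Pi16 and Thbs4/Cilp/Myoc fibroblasts (colors), 1 point per mouse (circles and triangles). Growth-type points lie above all others for every gene except Timp1, where the remaining fibroblasts of mouse 1, at 221 CPM, lie between the growth-type values of 212 and 248.

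The label was checked against markers. Growth-type sums held 1965 and 1756 CPM of Lum (lumican, a collagen-binding proteoglycan) and 393 and 430 CPM of Pdgfra, which did not pass the test against any class. Both are from a list of 9 fibroblast markers, of which 5 were tested. Against the remaining fibroblasts 0 of these 5 were called. Pdgfrb was called higher and Fbln1 lower (66.3 and 51.0 CPM against 181 and 173 CPM) than in the Pi16 class. Fbln1 was also lower than in the Thbs4/Cilp/Myoc class. Summed over its marker list, growth-type cells held 15.5 and 39.7 CPM of 4 immune genes, 6.66 and 7.60 CPM of 4 endothelial genes, 7.85 and 8.43 CPM of 4 Schwann cell genes and 20.4 and 35.5 CPM of 7 mural genes. In the remaining fibroblasts the same sums were 39.8 and 51.1, 8.13 and 13.8, 32.9 and 29.4, and 47.0 and 58.8 CPM. Each of these sums was thus lower in growth-type cells of both mice. The part of such transcripts in the results below was tested only for mural and papilla cells. The endothelial gene Cdh5, the mural gene Higd1b, the sheath gene Acan and the adipocyte genes Adipoq and Cidec were at 0 UMIs in mouse 1, and none of the listed genes was at 0 in mouse 2. The 5 keratinocyte genes summed to 276 and 184 CPM, close to the 285 and 252 CPM of the remaining fibroblasts. The 8 dermal papilla genes summed to 339 and 442 CPM against 512 and 561 CPM in the remaining fibroblasts. This sum was lower in the Pi16 class (191 and 320 CPM) and the Thbs4/Cilp/Myoc class (264 and 285 CPM). The papilla protease gene Corin fell from 37.4 and 44.6 CPM in the remaining fibroblasts to 10.9 and 13.6 CPM in growth-type cells (log2 fold change -1.72, SE 0.21, adjusted p = 0.0276). Against the Pi16 class, Crabp1 of this list was called higher and Rspo2 and Hhip lower. The 6 dermal sheath genes summed to 189 and 193 CPM, against 260 and 255 CPM in the remaining fibroblasts. They were at 149 and 124 CPM in the Pi16 class and 235 and 429 CPM in the Thbs4/Cilp/Myoc class.

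Igf2 was higher in growth-type cells of both mice, and few cells held it. It stood at 32.1 and 32.7 CPM in growth-type cells, 2.56 and 4.01 CPM in the remaining fibroblasts, 2.26 and 12.9 CPM in the Pi16 class and 3.11 and 7.02 CPM in the Thbs4/Cilp/Myoc class, with no overlap. An Igf2 UMI was found in 25 and 92 growth-type cells, 6.93% and 11.2%, against 1.31% and 2.82% of the remaining fibroblasts and 0.224% and 0.639% of keratinocytes. In mouse 1, 5 cells held 62.2% of the Igf2 UMIs, and in mouse 2, 5 cells held 33.2%. Without these cells, and without TMM scaling, Igf2 was at 12.2 and 22.5 CPM. The value of mouse 1 then lay below the 12.9 CPM of the Pi16 class in mouse 2, from which no cells were taken. The log2 fold change against the remaining fibroblasts was 3.27 (SE 0.70), with an adjusted p of 0.132 in edgeR's quasi-likelihood fit, which missed the threshold of 0.05. That fit took its spread from all 4 classes, among them the Pi16 class, where Igf2 differed between the mice (2.26 and 12.9 CPM). With mice paired by a replicate block the log2 fold change was 3.35 and the adjusted p 0.00315, DESeq2 gave an adjusted p of 4.36e-05, and edgeR gave 0.0161 with cells thinned to 3000 UMIs. Dlk1, an imprinted regulator of preadipocytes, was at 48.3 and 60.8 CPM against 12.01 and 21.3 CPM in the remaining fibroblasts (log2 fold change 1.71, SE 0.53, adjusted p = 0.326, and 0.0233 with the replicate block).

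Members differed among themselves along H19. The cells were described by their own number of H19 UMIs, with cuts set after the data were seen and with no test: 110 and 288 cells with 1, 94 and 180 with 2 to 4, and 157 and 352 with 5 or more. Their median depths were alike in mouse 1 (11004, 10719.5 and 11251 UMIs) and somewhat higher in the last set of mouse 2 (12393.5, 12422 and 14026.5 UMIs). Cdkn1c went from 645 to 1059 and 1423 CPM in mouse 1 and from 486 to 615 and 1089 CPM in mouse 2. Igf2 went from 2.29 to 14.1 and 62.6 CPM and from 6.12 to 16.4 and 60.8 CPM. These values rest on 3, 15 and 117 UMIs in mouse 1 and on 24, 39 and 329 UMIs in mouse 2. Over all sets, 5 cells held 62.2% and 33.2% of the Igf2 UMIs. In cells with a single H19 UMI, Igf2 lay within the range of the other fibroblast classes, but counts this low do not show that the levels were equal.

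The other markers did not all follow H19. Timp1 was at 297, 165 and 175 CPM over the 3 sets of mouse 1 and at 281, 281 and 222 CPM in mouse 2, and Adam12 at 793, 691 and 875 CPM and at 873, 972 and 1008 CPM. Hc, complement C5, was at 83.1, 112 and 135 CPM over the 3 sets of mouse 1 and at 39.0, 68.5 and 84.1 CPM in mouse 2. Postn went from 4756 to 7526 CPM and from 4012 to 7884 CPM between the first and last sets. Ly6a, Gpx3 and C4b were picked because they were called lower in this class, which was itself chosen on H19, so their course along H19 is a description only. Ly6a, a surface antigen of fascia and progenitor fibroblasts, was at 685 and 747 CPM in cells with 1 H19 UMI and 208 and 255 CPM in those with 5 or more. Gpx3, a secreted glutathione peroxidase, went from 430 and 358 CPM to 111 and 142 CPM between these sets, and C4b, complement C4, from 77.0 and 56.3 CPM to 15.0 and 21.3 CPM. Pdgfra showed no such course, with 377, 393 and 395 CPM in mouse 1 and 368, 516 and 459 CPM in mouse 2.

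**Figure D3:**
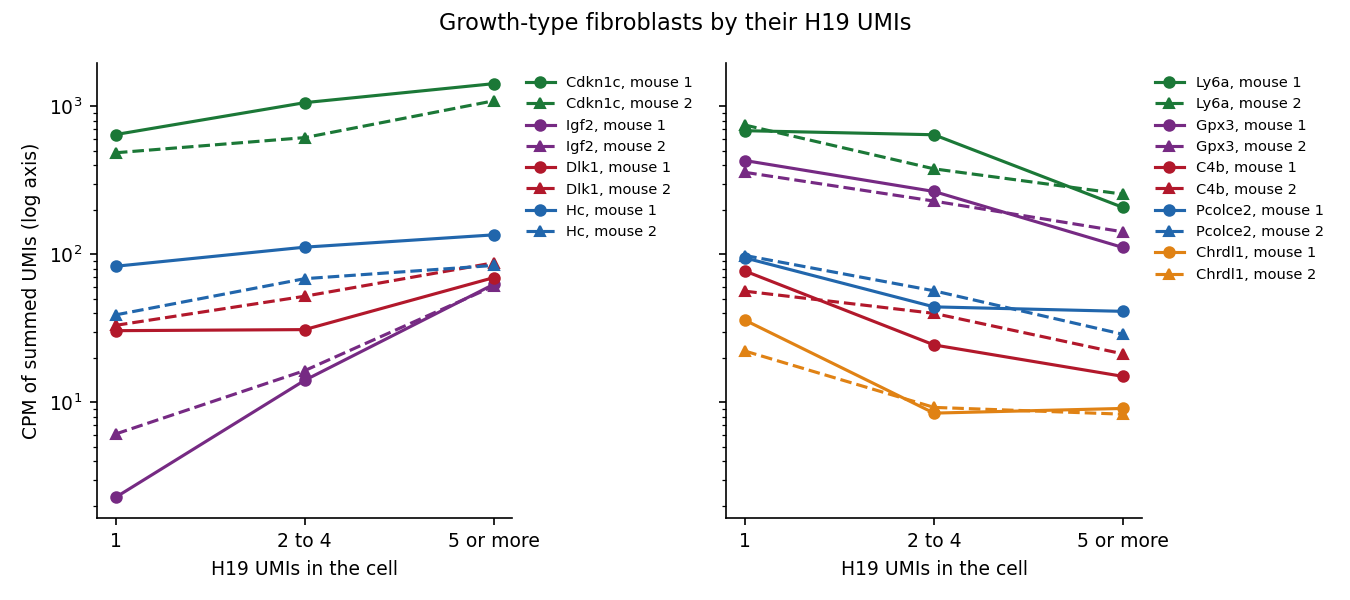
CPM of summed UMIs (y axis, log scale) in growth-type fibroblasts with 1, 2 to 4 and 5 or more H19 UMIs (x axis), for genes high in these cells (left) and low in them (right), with solid lines and circles for mouse 1 and dashed lines and triangles for mouse 2. Igf2 climbs from 2.29 and 6.12 CPM (3 and 24 UMIs) to 62.6 and 60.8 CPM (117 and 329 UMIs), and Ly6a descends from 685 and 747 CPM to 208 and 255 CPM.

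Tests across genes used edgeR's quasi-likelihood test on the 8 sums of 4 classes and 2 mice, with Benjamini-Hochberg adjustment over 15084 genes. The genes of the rule, the markers Cdkn1c and Timp1 and mitochondrial genes were left out. The p-values rest on the spread of levels between only 2 mice, pooled over the 4 classes. Classes of a mouse came from 1 library, and the fit did not pair them. The classes were cut from the UMIs of the same cells, so genes that vary from cell to cell with the rule's genes are among the calls.

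Against the remaining fibroblasts, the nearest class, growth-type cells had 1 gene called higher, 0.00663% of those tested, and 50 called lower, 0.331%. The gene that rose was Hc on chromosome 2 at 34983331 to 35061438, which encodes complement C5. It stood at 114 and 64.4 CPM against 26.0 and 26.9 CPM (log2 fold change 1.75, SE 0.25, adjusted p = 0.0455). The genes that fell were led by Chrdl1, a secreted BMP antagonist on chromosome X at 143285674 to 143394262, with 17.4 and 12.9 CPM against 93.1 and 68.9 CPM (log2 fold change -2.45, SE 0.28, adjusted p = 0.0203).

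The complement genes C4b and C2 fell. C4b was at 36.9 and 36.0 CPM against 145 and 109 CPM (log2 fold change -1.80, SE 0.18, adjusted p = 0.0196) and C2 at 18.3 and 23.0 CPM against 68.6 and 63.3 CPM (log2 fold change -1.66). C4b and C2 act upstream of C5 in the classical pathway. Among matrix genes, the procollagen proteinase enhancer Pcolce2 fell from 190 and 180 CPM to 59.0 and 56.4 CPM (log2 fold change -1.68, SE 0.14). The proteoglycan gene Prelp fell from 85.5 and 74.7 CPM to 31.6 and 27.0 CPM, and Adamtsl1 from 360 and 352 CPM to 154 and 161 CPM.

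The cell adhesion genes Cadm3 (23.8 and 22.3 CPM against 85.2 and 84.1 CPM) and Opcml (128 and 158 CPM against 426 and 541 CPM) fell with log2 fold changes of -1.88 and -1.76. Ntrk2, the BDNF receptor, was at 46.6 and 29.1 CPM against 125 and 101 CPM, and Pid1, a modulator of insulin signaling, at 61.1 and 52.4 CPM against 174 and 181 CPM. Inhba, which encodes the activin A subunit, was at 5.71 and 8.52 CPM against 34.2 and 36.9 CPM (log2 fold change -2.27, adjusted p = 0.0420). Cells with at least 5 UMIs of mural genes or 2 of papilla genes, Corin among them, were 15.5% and 16.7% of growth-type cells and 21.4% and 17.9% of the remaining fibroblasts. Without such cells, Inhba was no longer called (adjusted p = 0.678).

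Of the 27 tested markers of lower dermis, fascia and preadipocytes, 3 fell and none rose against the remaining fibroblasts, with a median log2 fold change of -0.45 beside -0.000866 over all genes. They were Gpx3 (251 and 227 CPM against 645 and 644 CPM), Ly6a (468 and 435 CPM against 1167 and 1082 CPM) and Ly6c1 (168 and 127 CPM against 442 and 349 CPM). No gene of the 28 tested in the imprinted list, the 22 collagen chains, the 32 signals to the follicle, the 14 papillary markers or the 20 retinoid genes was called in edgeR's fit without a term for the mouse. Of the genes of these lists, only the imprinted Igf2 and Dlk1 were followed under the replicate block. With it, edgeR called both (adjusted p 0.00315 and 0.0233), and the other list genes were not checked there. In the fit without the block, the follicle signals had a median of -0.73 and the collagen chains of 0.32.

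No call was left when either growth-type sum or either remaining sum was left out, and pairing the mice by a replicate block gave 243 calls upward and 653 downward. Against the 671 and 904 remaining fibroblasts that also held Adam12 and Postn, and so lacked H19, edgeR called 0 genes (616 of 14625 at an unadjusted p under 0.05), the block 28 higher and 108 lower, and DESeq2 11 higher and 42 lower.

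**Figure D4:**
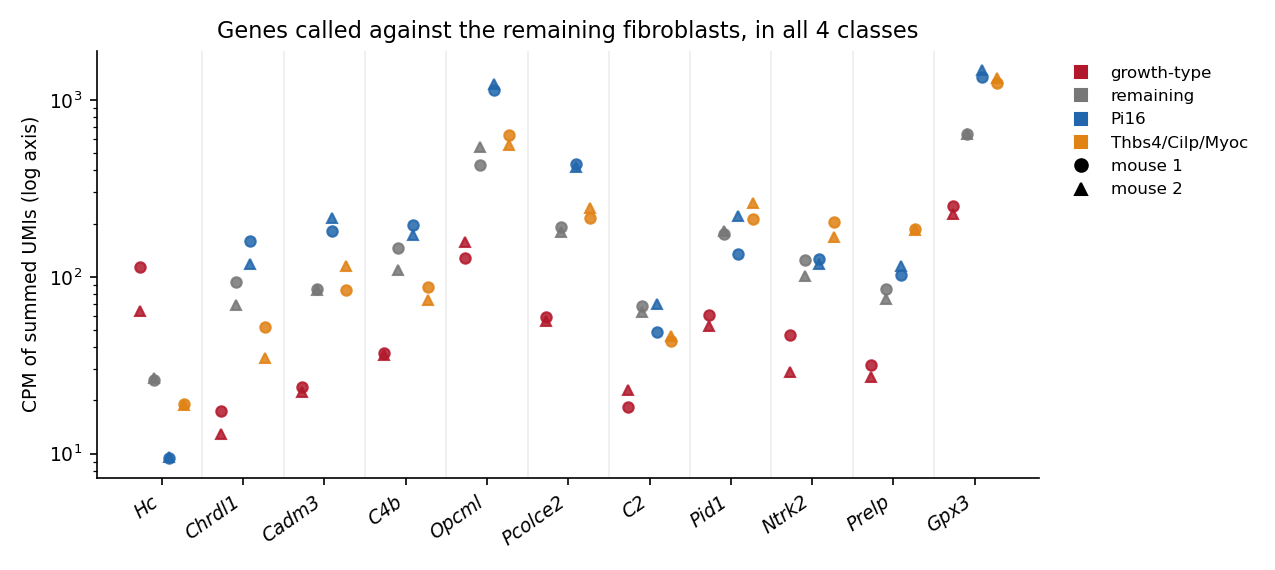
CPM of summed UMIs (y axis, log scale) of the gene called higher (Hc) and the 10 called lower with the largest fold changes (x axis) in growth-type, remaining, Pi16 and Thbs4/Cilp/Myoc fibroblasts (colors), 1 point per mouse (circles and triangles). For Hc the growth-type points, at 114 and 64.4 CPM, are highest, and for the other genes they are the lowest of the 4 classes.

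Pi16 is known from adventitial and fascia fibroblasts. Against Pi16 fibroblasts, 447 genes were higher in growth-type cells (2.96%) and 681 lower (4.51%). Hc was again among the largest rises, at 114 and 64.4 CPM against 9.40 and 9.62 CPM (log2 fold change 3.22, SE 0.26, adjusted p = 0.00084). S1pr1, a receptor for sphingosine 1-phosphate, rose from 5.74 and 10.9 CPM to 54.0 and 54.7 CPM (log2 fold change 2.76, SE 0.30). Frem1, a basement membrane protein gene, rose from 34.9 and 58.6 CPM to 216 and 276 CPM, and Angpt2, an angiopoietin, from 7.23 and 16.6 CPM to 58.5 and 62.7 CPM.

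Others of the 10 largest rises were St6galnac3, a sialyltransferase gene (312 and 365 CPM against 29.8 and 62.0 CPM), the adaptor gene Shc4, the microtubule gene Map2 and the phosphodiesterase gene Pde11a. Cst6, which encodes a cysteine protease inhibitor, was called with a log2 fold change of 3.21, but this rested on single cells. In mouse 1, 1 growth-type cell held 833 of the 880 Cst6 UMIs and in mouse 2 another held 894 of 968. Without the top 5 cells Cst6 was at 9.38 and 5.70 CPM, and without Scrublet doublets its adjusted p was 0.237.

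Of 22 collagen chains tested, 9 rose, 1 fell and 12 were not called, with a median log2 fold change of 0.99 against -0.01 over all genes. Col13a1, a transmembrane collagen, rose from 10.0 and 18.5 CPM to 85.8 and 90.5 CPM (log2 fold change 2.66, SE 0.31, adjusted p = 0.00275). Col12a1, a fibril-associated collagen, rose to 290 and 271 CPM (log2 fold change 1.73), and Col18a1, a basement membrane zone collagen, from 86.1 and 145 CPM to 415 and 401 CPM (log2 fold change 1.82). Col5a3, Col7a1, Col15a1, Col23a1, Col26a1 and Col27a1 also rose and Col8a1 fell. The main fibrillar chains Col1a1, Col1a2 and Col3a1 were part of the rule and were not tested.

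Of 50 matrix glycoprotein and proteoglycan genes 4 rose, 11 fell and 35 were not called. Fibronectin (Fn1) rose from 2416 and 2401 CPM to 4768 and 3691 CPM, with Thbs1, Ccn4 and Cthrc1. Fibrillin-1 (Fbn1) fell from 2782 and 2191 CPM to 1029 and 925 CPM and osteoglycin (Ogn) from 1346 and 974 CPM to 325 and 256 CPM, with Dpt, Fbln1, Fbln2, Prelp and others. Of 39 metalloproteinases and inhibitors 5 rose, among them Mmp3 (118 and 127 CPM to 273 and 266 CPM) and Adamts4, and 11 fell, among them Timp2 (2200 and 1698 CPM to 689 CPM in both mice).

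Of 24 contractile and focal adhesion genes, 5 rose and 1 fell. Palld, which encodes the actin crosslinker palladin, rose from 195 and 219 CPM to 657 and 535 CPM (log2 fold change 1.53). Lrrc15, a surface protein of TGF-beta-activated fibroblasts, rose from 22.5 and 40.7 CPM to 157 and 143 CPM (log2 fold change 2.26, SE 0.36). Itga11, a collagen receptor, fell from 49.1 and 77.2 CPM to 11.9 and 22.9 CPM.

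Dpp4, a surface peptidase of fascia fibroblasts, fell from 497 and 438 CPM to 33.0 and 50.3 CPM (log2 fold change -3.47, SE 0.37), the sphingomyelinase gene Smpd3 from 937 and 440 CPM to 24.2 and 22.8 CPM (log2 fold change -4.88), and Limch1 from 180 and 81.4 CPM to 1.19 and 3.59 CPM. The signaling genes Edn1 (endothelin 1), Il18 and Il33 were each under 8 CPM in growth-type cells and between 36.1 and 186 CPM in Pi16 cells. Of the 27 lower dermis and fascia markers 12 fell, with a median of -0.96, and Col15a1, Pparg and Plin2 rose. The classes were split on Pi16, itself known from fascia fibroblasts, so this count is not independent of how they were cut. Of 5 adipocyte markers tested Pparg rose, and the summed level of the 6 listed was 1840 and 2436 CPM in growth-type cells, 1785 and 2163 CPM in the remaining fibroblasts, 1442 and 1702 CPM in the Pi16 class and 1142 and 1358 CPM in the Thbs4/Cilp/Myoc class, while Adipoq and Cidec were at 0 in growth-type cells of mouse 1. The part of these transcripts in the result was not tested. Of 14 papillary markers 6 rose and 3 fell, and 3 of those that rose (Col7a1, Col13a1 and Col23a1) are also on the collagen list.

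Of 32 signals that fibroblasts send to the follicle 12 fell, 2 rose and 18 were not called, with a median of -0.998. Bmp4 fell from 27.7 CPM in both mice to 8.32 and 7.01 CPM (log2 fold change -1.88, SE 0.22), Fgf7 from 97.9 and 110 CPM to 47.1 and 34.6 CPM (log2 fold change -1.36) and Fgf2 from 77.6 and 55.9 CPM to 19.3 and 20.4 CPM. Bmp2, Bmp3, Bmp5, Bmp6, Bmp7, Rspo2, Fgf18, Ccl7 and Tslp also fell, all under 14 CPM in growth-type cells except Ccl7. Hgf, hepatocyte growth factor, rose from 16.2 and 25.8 CPM to 67.8 and 93.1 CPM (log2 fold change 1.96, SE 0.33), and the Wnt agonist Rspo1 rose from 10.6 and 14.1 CPM to 28.1 and 20.3 CPM.

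Of 28 imprinted genes tested besides the markers, 3 rose and 2 fell against Pi16 fibroblasts, with a median of -0.03. Mest rose from 20.9 and 24.0 CPM to 52.8 and 41.8 CPM, Peg10 from 13.1 and 14.3 CPM to 25.4 and 38.6 CPM and Slc38a4, an amino acid transporter gene, from 18.04 and 18.5 CPM to 39.0 and 38.3 CPM. Grb10 and Gpc3 fell, with log2 fold changes of -0.64 and -0.77. Of 16 genes tested in the insulin-like growth factor list, Igfbp4 and Irs2 rose, Igfbp5, Igfbp6 and Pappa2 fell and 11 were not called. Of 20 retinoid genes tested, 2 rose, 1 fell and 17 were not called, and 1 of 20 is near the 4.51% called lower over all genes. Crabp1, a retinoic acid carrier, was among those that rose. Aldh1a3, which makes retinoic acid, fell from 120 and 48.5 CPM to 8.32 and 12.2 CPM.

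Against Thbs4/Cilp/Myoc fibroblasts, 154 genes were higher in growth-type cells (1.02%) and 472 lower (3.13%). Ptn, the growth factor pleiotrophin, was among the 10 largest rises, at 966 and 1003 CPM against 216 and 206 CPM (log2 fold change 2.22, SE 0.24, adjusted p = 0.00416). Hgf rose from 12.9 and 15.6 CPM to 67.8 and 93.1 CPM (log2 fold change 2.48, SE 0.38), and Hc, S1pr1, Angpt2 and, from single cells as above, Cst6 rose here too. Sfrp2, a secreted modulator of Wnt signaling, rose from 94.2 and 136 CPM to 451 and 379 CPM, the chloride channel gene Ttyh2 from 33.7 and 52.2 CPM to 174.5 and 173 CPM, and the regulator gene Prdm6 from 17.1 and 36.6 CPM to 105 and 95.9 CPM. The largest falls included Col8a1 (58.0 and 76.0 CPM to 2.38 and 1.92 CPM, log2 fold change -5.01), Bmp5 (51.8 and 51.9 CPM to 1.19 and 2.17 CPM), Itgbl1 (396 and 546 CPM to 25.7 and 37.7 CPM) and Angptl1 (189 and 180 CPM to 18.3 and 14.1 CPM).

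Against Thbs4/Cilp/Myoc fibroblasts Fn1 also rose, from 1311 and 1516 CPM to 4768 and 3691 CPM (log2 fold change 1.58, SE 0.18), with Efemp1 and Cthrc1, and 12 of 50 matrix genes fell, among them Bgn, Mgp, Ogn and Prelp. Of 33 collagen maturation genes 5 fell and none rose, including Lox, Pcolce and Pcolce2. Of 32 follicle signals 8 fell and Hgf alone rose. Of 22 collagen chains 2 rose (Col13a1 and Col18a1) and 3 fell (Col8a1, Col8a2 and Col11a1), and whether the collagen calls differed between comparisons was not tested.

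All 3 comparisons used the same growth-type sums and so are not independent.

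**Figure D5:**
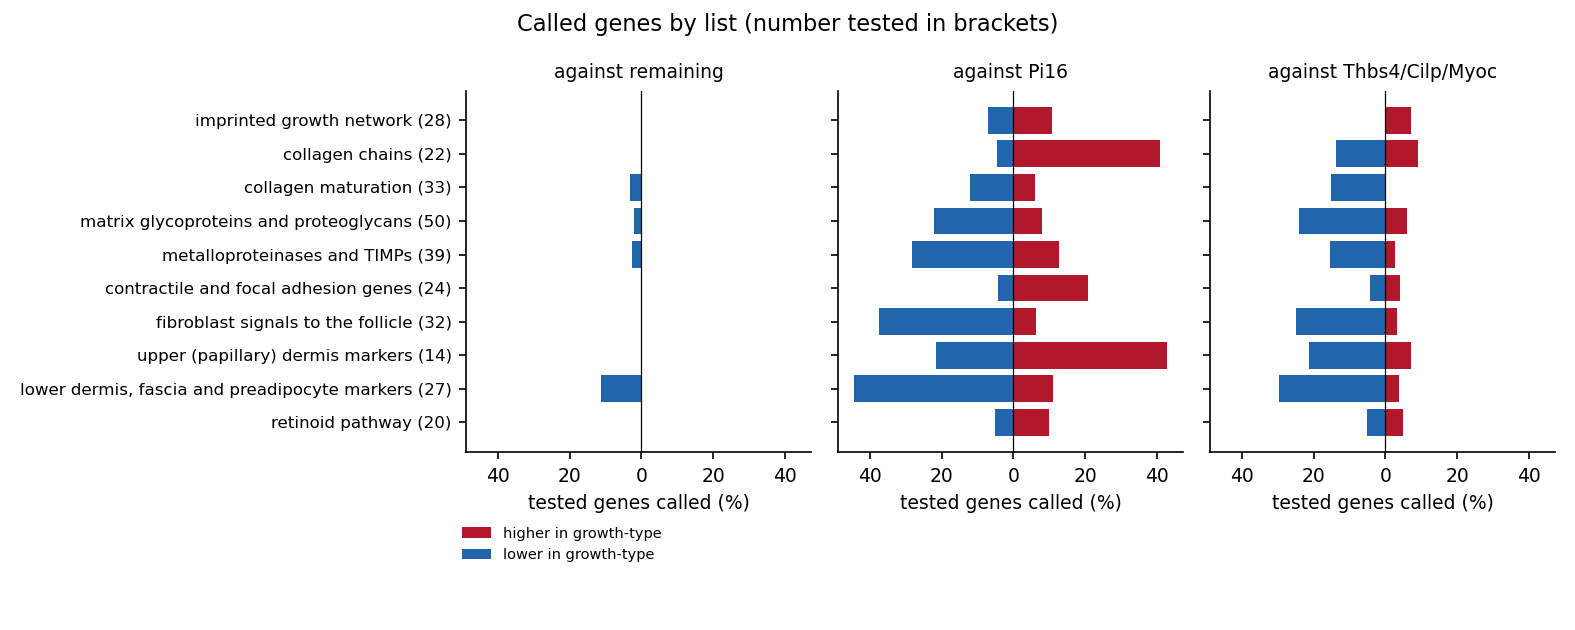
Share of tested genes of 10 lists (rows, with the number tested) that were called higher (red, to the right) or lower (blue, to the left) in growth-type cells than in each of 3 fibroblast classes (panels, x axis in percent). Against Pi16 fibroblasts the red bars of collagen chains (9 of 22) and papillary markers (6 of 14) and the blue bars of follicle signals (12 of 32) and lower dermis markers (12 of 27) are the longest. The lower dermis bar is not independent of the split on Pi16.

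Cycling genes were counted per cell, as the name of the class refers to growth genes and not to division. At least 2 UMIs of 14 genes of S to M phase were held by 51.0% (45.7 to 56.2) and 60.1% (56.7 to 63.5) of growth-type cells, against 43.3% and 53.5% of the remaining fibroblasts. With cells thinned to 3000 UMIs the shares were 11.4% (8.30 to 15.1) and 14.8% (12.4 to 17.4), against 15.6% and 16.8% of the remaining fibroblasts, 14.6% and 16.8% of the Pi16 class and 13.7% and 14.5% of the Thbs4/Cilp/Myoc class. Thinning left out the shallower cells, 1 and 14 growth-type cells and 119 of 1223 and 478 of 1845 remaining fibroblasts. It also left out 118 and 16 cells of the Pi16 class and 6 and 14 of the Thbs4/Cilp/Myoc class. Mki67, a proliferation marker, had a UMI in 19.4% and 29.0% of growth-type cells and in 19.5% and 25.9% of the remaining fibroblasts. In the Pi16 class it was seen in 20.2% and 28.6% of cells, and in the Thbs4/Cilp/Myoc class in 17.1% and 24.8%. The 24.0% and 27.5% of keratinocytes with a Mki67 UMI do not measure free RNA, because these cells can divide themselves. A difference in cycling between the classes was not tested and was not read from these counts. Of 30 cell cycle genes in the fit, Ccnd2 (cyclin D2) alone was called, against the Pi16 class (200 and 236 CPM to 405 and 344 CPM, log2 fold change 0.78, SE 0.15) and against the Thbs4/Cilp/Myoc class (212 and 225 CPM, adjusted p = 0.0339), and 1 of 30 is near the shares of 2.96% and 1.02% called higher over all genes. Of 6 other CDK inhibitors tested against Pi16 fibroblasts, Cdkn2c and Cdkn2b rose, Cdkn1a fell from 55.7 and 57.2 CPM to 17.6 and 24.5 CPM and 3 were not called.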

How the data were processed

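Single cell RNA-sequencing of back skin of 2 wild-type mice was re-analyzed, and the other samples of the series were not used here. The authors deposited whole UMI counts of called cells for 32285 features (CellRanger 7.0.0 in the matrix headers, Cell Ranger 7.0.1 and mm10 in the submitters' processing notes). The methods name SoupX and DoubletFinder for free RNA and doublets. Whether these matrices precede that step is not given in the sources used here, and they were used as deposited. The members, marker genes and gene lists were chosen with earlier results of these data known. Rule and filters are given with the results.

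The replicate was the mouse: counts were added up per mouse and class, and 1 fit of the 8 sums was made with edgeR 4.0.16 in R 4.3.3. It used TMM scaling, the filterByExpr filter and the two-sided quasi-likelihood test, and a call needed a Benjamini-Hochberg adjusted p under 0.05. Sums held 1927569 to 31831142 UMIs and TMM factors lay between 0.952 and 1.04. Fold changes are growth-type over the other class. The classes of a mouse came from 1 library. Deviations of same-mouse sums from the class means correlated at 0.272 to 0.497 over 15116 genes, so the numbers pair the sums. The fit reported had no term for the mouse, and the replicate block was an alternative. On simulated data for the comparison with remaining fibroblasts, 82.5% of genes with a log2 change of 2 and 28.9% with a change of 1 were called among 14767 genes, as were 11 unchanged genes. The simulated sums were drawn independently, without an effect of the mouse. Apart from the changed genes, all classes had the same levels, so these rates need not hold for the real sums.

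Genes named were the rule and marker genes, in each comparison the 10 called genes with the largest change each way at 50 CPM or more in the higher class without overlap, and called list members. Igf2, Dlk1, Pdgfra, Lum and list genes named only against the Pi16 or Thbs4/Cilp/Myoc class were picked after their values were seen. One result on a list gene is not reported here. Scanpy 1.11.5 with Scrublet gave doublet calls (seed 11). Positions came from GENCODE M21 (GRCm38). Alternatives were DESeq2 1.42.0, its size factors, no filter, a stricter threshold, leaving out each sum, the replicate block, depth windows, thinning, doublets, mural or papilla cells, stricter cell filters and, chosen after seeing the data, 2 or more H19 UMIs and remaining fibroblasts with Adam12 and Postn.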

Additional observations from a re-analysis of the deposited data

How the results depend on the processing

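Genes called against the remaining fibroblasts numbered 51 in all. There were 0 when a call needed an adjusted p below 0.01 and a log2 change of more than 1 either way, 267 with DESeq2 (27 higher, 240 lower), 798 without a filter on low counts, 896 with the replicate block, and 0 to 107 with 1 sum left out. Chosen after seeing the data, 163 were called with 2 or more H19 UMIs per growth-type cell, and 0 (136 with the replicate block, 53 with DESeq2) against remaining fibroblasts with Adam12 and Postn UMIs. In edgeR's fits with 0 calls, 907 to 1368 genes, and 616 in the last, had an unadjusted p under 0.05. Depth windows and thinning gave 56 and 54.

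Against Pi16 fibroblasts the 1128 calls became 344 at the stricter threshold, 2238 without the filter, 3056 with the replicate block (1384 higher, 1672 lower) and 198 to 1126 with 1 sum left out. Against Thbs4/Cilp/Myoc fibroblasts the 626 became 172, 1664, 2130 (859 higher, 1271 lower) and 57 to 719, and 412 with cells thinned to 3000 UMIs. The lowest of each came without the growth-type sum of mouse 2. The block turned Igf2 to a call against all 3 classes (adjusted p 0.00315, 0.00261 and 0.0147) and lost no call of a named gene.

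With each sum left out in turn, 0 of 16 named calls against the remaining fibroblasts, 27 of 128 against the Pi16 class and 17 of 88 against the Thbs4/Cilp/Myoc class passed throughout. Hc lost its call against the remaining fibroblasts when a growth-type, remaining or Thbs4/Cilp/Myoc sum was left out (adjusted p 0.0509 to 0.199), after thinning (0.0561) and without doublets (0.0549). No named log2 fold change turned sign under any alternative.

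The share of growth-type cells, 8.82% as the mean of the mice (SD 4.63), was 5.55% to 12.1% with 1 mouse left out, 5.39% with at least 2 UMIs of each rule gene, 6.21% with cells thinned before the rule, and 8.95% to 9.18% in the other settings. The share of cells with 2 or more cycling UMIs, 55.5% on average, was 13.1% after thinning, 82.1% at 1 or more UMIs, and 51.0% to 60.1% with 1 mouse left out. Calls rest on 2 mice, and genes near 1 UMI per cell are limited by depth.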

Other observations

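Growth-type transcripts were also present outside the class as it was defined. All 3 rule genes were detected in 218 and 153 cells of the Pi16 class, in 15 and 45 of the Thbs4/Cilp/Myoc class and in 50 and 485 fibroblasts with 5 or more interferon UMIs. Of 691 and 1546 gated fibroblasts with all 3 genes, 361 and 820 were counted as growth-type. In the summed interferon fibroblasts H19 was at 50.9 and 81.6 CPM, Cdkn1c at 132 and 146 CPM, and Postn at 1636 and 1677 CPM, without scaling by TMM. In keratinocytes H19 was at 7.29 and 14.7 CPM and Cdkn1c at 8.80 and 10.9 CPM.

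Cst6 is a case of a call made by single cells that summed counts hide, with 1 cell of each mouse at 833 and 894 UMIs. Igf2 and Dlk1 had a like though weaker pattern. In 5 cells of each mouse lay 62.2% and 33.2% of the Igf2 UMIs and 33.99% and 37.5% of the Dlk1 UMIs. Hc did not have it, with 7.90% and 6.36%. Among genes called higher than in the Pi16 class, Peg10 and Col7a1 were concentrated mainly in mouse 1. In growth-type cells, 5 cells held 34.6% and 13.6% of the Peg10 UMIs and 35.8% and 14.1% of the Col7a1 UMIs. In the Thbs4/Cilp/Myoc class, 5 cells held 54.5% and 44.5% of the UMIs of Ednrb and 44.6% and 36.1% of those of Col8a1, so these falls also describe few cells.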
